A study of Mus musculus with 16 samples.

Results

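The genes described here are 31 genes of the hypoxia response and of glycolysis, taken by name from a list, out of 24011 gene symbols in a table of RNA-seq read counts. All 31 were found in the table. The list holds 2 carriers for glucose and lactate, 10 genes of upper glycolysis, 6 of lower glycolysis and of pyruvate use, 4 genes for the hypoxia-inducible transcription factors and their oxygen sensors, and 9 other genes known as targets of those factors. The counts come from 16 libraries of mouse tissue kept in culture medium for 4 h. There were 4 libraries each of aorta with estradiol (E2, the main natural estrogen, at 10 nM), aorta with ethanol vehicle, liver with E2 and liver with vehicle. All tissue came from wild-type female C57BL/6 mice whose ovaries had been removed at 6 to 7 weeks of age, a week before collection. The donors of all 4 groups thus lacked ovaries, and the E2 groups met E2 in culture. The liver samples were pieces from the tip of the major lobe. The labels give 2 ways of making libraries: 8 started at 50 ng RNA each and used the Ovation kit (Nugen), and 8 started at 600 ng, taken from a single aorta or liver piece, and used the poly-A TruSeq kit. The series text speaks of replicates that each hold tissue of 4 mice. No library of uncultured tissue was analysed here, so every level below is a level after culture.

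Cells that lack oxygen stabilise the factors HIF-1 alpha (gene Hif1a) and HIF-2 alpha (gene Epas1). In normal oxygen, prolyl hydroxylases of the Egln family mark both proteins for destruction. Stabilised factors pair with Arnt and bind short DNA sites with the core ACGTG or GCGTG, and among their best known targets are the glucose transporter, most glycolytic enzymes and the lactate exporter. The control acts mainly on the proteins, so the level of Hif1a mRNA is no measure of factor activity. Liver makes glucose and uses its own forms of several glycolytic enzymes, while the vessel wall is known to take up much glucose and to release lactate.

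Promoter windows were searched because most of these genes stood higher in aorta together, as described below. RefSeq windows (GRCm38.p6, from 250 bases before to 50 bases after each gene start) were found for 29 of the 31 genes; Epas1 and Ndrg1 had no entry. The stretches below are 80 bases long, lie upstream of the start and are printed 5′ to 3′ on the strand of the gene, with ACGTG or GCGTG on either strand in capitals (CACGT and CACGC are these cores on the other strand). CACGTG holds ACGTG on both strands and counts as 2 matches. The first 7 genes stood higher in aorta than in liver, Ldha was not called different and Aldoc stood lower.
Slc2a1, chr4:119108656-119108735, plus strand: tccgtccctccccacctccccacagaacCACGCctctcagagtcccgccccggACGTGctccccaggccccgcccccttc
Slc16a3, chr11:120948987-120949066, plus strand: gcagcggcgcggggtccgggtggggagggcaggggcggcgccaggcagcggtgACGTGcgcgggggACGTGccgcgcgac
Pfkfb3, chr2:11502133-11502212, minus strand: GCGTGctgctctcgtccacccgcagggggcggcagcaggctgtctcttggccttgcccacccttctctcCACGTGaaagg
P4ha2, chr11:54100799-54100878, plus strand: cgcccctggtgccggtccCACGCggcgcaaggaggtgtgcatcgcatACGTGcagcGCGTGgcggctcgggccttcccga
Car9, chr4:43506946-43507025, plus strand: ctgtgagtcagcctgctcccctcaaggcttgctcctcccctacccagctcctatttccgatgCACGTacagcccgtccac
Bnip3, chr7:138909575-138909654, minus strand: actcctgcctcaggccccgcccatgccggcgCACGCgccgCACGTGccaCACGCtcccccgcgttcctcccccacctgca
Hif1a, chr12:73907722-73907801, plus strand: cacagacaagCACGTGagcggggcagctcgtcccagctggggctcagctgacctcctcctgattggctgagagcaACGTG
Ldha, chr7:46845721-46845800, plus strand: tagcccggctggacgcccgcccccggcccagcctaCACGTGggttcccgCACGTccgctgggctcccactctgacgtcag
Aldoc, chr11:78322983-78323062, plus strand: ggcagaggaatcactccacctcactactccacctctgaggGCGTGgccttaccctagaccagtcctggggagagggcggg

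ACGTG lay in a window of 22 of the 29 genes (75.9%), against 21.8% of 27025 genes with a window and 28.7% of the 9490 that were also tested between the tissues. GCGTG lay in 20 of 29 (69.0%), against 35.2% of all genes and 54.9% of tested genes, and either core lay in 27 (93.1%), against 46.7% and 66.4%. The list includes known HIF targets, so its share of these cores is tied to how it was made and is no result about these libraries. The windows of these genes were richer in G and C, with a median of 64.7%, than those of all genes (52.7%) and of tested genes (60.3%). A gene counted if any of its windows held a core. The 29 genes had 41 windows, the 9490 tested genes 12170 and all 27025 genes 32851. Neither GC content nor the number of windows was adjusted for. The cores were present in genes of either behaviour: the Ldha stretch holds 3 matches and the Bnip3 stretch 4. Gpi1 and Tpi1 had neither core in a window, and both were called higher in aorta with either treatment. A match describes the letters only and is no proof of a binding site.

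Libraries held between 3896733 counts, in a liver library with E2, and 19823982 counts, in an aorta library with vehicle. Column headers end in o1, o2, n1 or n2, a suffix that no label explains. Libraries are named by it here, and values of a group are listed in the order o1, o2, n1, n2. Nothing in the labels says that libraries of a group came from separate animals throughout, so p-values measure the spread between these libraries, which may be technical. The ribosomal RNA gene Rn45s took 25.7% to 34.5% of the counts in o libraries of liver and 2.94% to 6.2% elsewhere. Marker genes followed the tissue labels. All 5 smooth muscle markers were called higher in aorta with either treatment; they summed to 8670 to 26300 CPM (counts per 1000000, on TMM library sizes) in aorta with E2 and 9190 to 16300 in aorta with vehicle, against 148 to 334 in liver with E2 and 144 to 388 in liver with vehicle. All 6 hepatocyte markers were called lower; they summed to 25.2 to 167 CPM and 46.1 to 382 CPM in aorta with E2 and vehicle, against 61100 to 166000 and 63300 to 107000 in liver. All 5 fat markers were called higher in aorta, with summed levels of 2030 to 3840 CPM with E2 and 2030 to 4150 with vehicle, against 63.5 to 214 and 63.5 to 253 in liver. Macrophage markers summed to 68 to 111 CPM and 81.4 to 169 CPM in aorta with E2 and vehicle, against 141 to 396 and 183 to 425 in liver, with Clec4f, of liver macrophages, at 0.392 CPM or less in aorta. Endothelial markers overlapped between the tissues, at 278 to 763 CPM in aorta and 73 to 840 CPM in liver. Skeletal muscle markers reached 98.8 CPM in aorta and 6.41 CPM in liver. Lymphocyte markers reached 25.7 CPM in liver, and in aorta 86.7 CPM in the n2 library with vehicle but no more than 19.03 CPM in any other library. Of the red cell markers, Hba-a1 was at 0 in every library and Hbb-b1 had 1 read in all, so their sum, up to 297 CPM in aorta and 123 CPM in liver, was Alas2 alone. Among the fat markers Ucp1, the brown fat uncoupling protein, stood at 88.8 to 774 CPM in aorta with E2 and 87.0 to 513 with vehicle.

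Of the 31 genes, 23 stood higher in aorta than in liver and 1 stood lower, in the E2 libraries and again in the vehicle libraries, and the same 24 genes were called in both. A gene was called where edgeR's quasi-likelihood test over all genes gave a Benjamini-Hochberg adjusted p under 0.05 and the log2 difference exceeded 1. With E2, 30 of the genes passed the filter on low counts, and 23 called higher compares with 26.3% of 13061 genes tested; 1 called lower compares with 22%. With vehicle, 29 passed the filter, and the same counts compare with 24.1% and 23.4% of 12607. The median log2 difference, aorta over liver, was 2.80 with E2 and 2.67 with vehicle, against 0.16 and 0.05 over all genes tested. Of these roles, both carriers were called, 9 of 10 genes of upper glycolysis, 1 of lower glycolysis, 3 of 4 factor and sensor genes and all 9 other targets. Summed over the 31 genes, CPM was between 6390 and 8820 in E2-treated aorta and between 6500 and 8270 in aorta with vehicle, against 1420 to 2040 in liver with E2 and 1550 to 1940 in liver with vehicle, so the tissues did not overlap. In whole tissue, more cells of a type and more RNA per cell cannot be told apart, and how far the muscle, fat and liver cell markers that differ with the tissue take part in these differences was not tested.

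**Figure D1:**
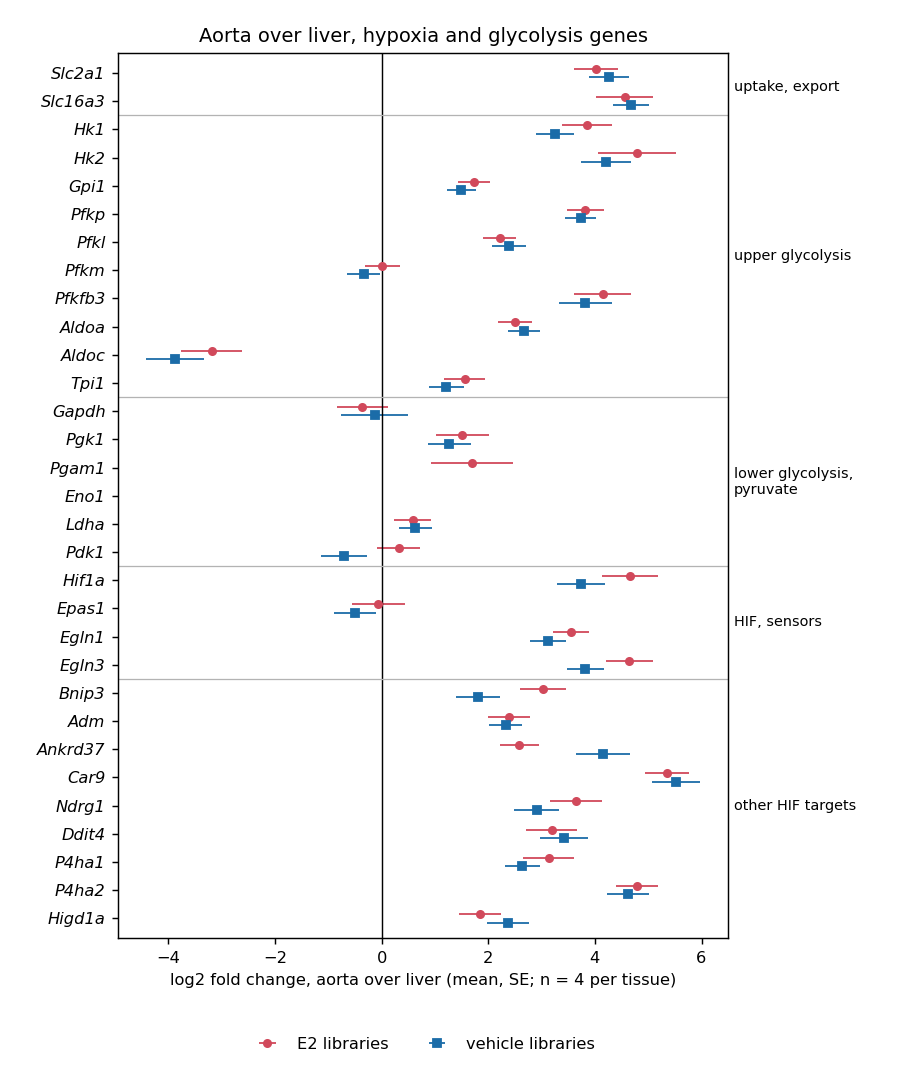
Log2 fold change of each gene, aorta over liver, in the E2 libraries (red circles) and in the vehicle libraries (blue squares), with the SE, from 4 libraries per tissue; genes are grouped by role. Most points lie right of 0 in both fits, Aldoc lies at −3.19 and −3.88, and Eno1 has no value because it did not pass the filter.

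The carriers at either end of the pathway were among the genes with the widest gap. Slc2a1, which encodes the glucose transporter GLUT1, stood at 847, 1112, 872 and 731 CPM in aorta with E2 and 908, 1166, 858 and 549 CPM in aorta with vehicle. In liver it stood at 78.1, 115, 35.3 and 32.1 CPM with E2 and 61.1, 89.8, 21.2 and 29.6 CPM with vehicle. Every aorta library lay above every liver library, by a log2 difference of 4.03 ± 0.41 with E2 and 4.26 ± 0.37 with vehicle (SE, n = 4 per tissue; adjusted p = 3.35e-05 and 1.8e-06). Slc16a3, the lactate exporter MCT4, stood at 90.2, 98.03, 401 and 410.1 CPM in aorta with E2 and 87.0, 79.2, 379 and 426 CPM in aorta with vehicle. Liver had 5.47, 13.2, 8.92 and 9.13 CPM of Slc16a3 with E2 and 5.34, 2.84, 10.3 and 15.5 CPM with vehicle. The tissues did not overlap here either, and the log2 differences were 4.56 ± 0.54 and 4.68 ± 0.34 (adjusted p = 8.9e-05 and 4.29e-07). Within aorta, the n libraries held more Slc16a3 than the o libraries, a split that Slc2a1 did not show.

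Of the 10 genes of upper glycolysis, 8 were called higher in aorta than in liver and Aldoc was called lower, with either treatment. The hexokinases, which trap glucose in the cell, both stood higher: Hk1 by 3.85 ± 0.46 with E2 and 3.25 ± 0.35 with vehicle, and Hk2, the form known to respond to hypoxia, by 4.80 ± 0.73 and 4.20 ± 0.47 (log2, SE). Gpi1, the next enzyme, stood higher by 1.729 and 1.495. The phosphofructokinase subunits differed among themselves. Pfkp, the platelet form, stood at 417, 564, 398 and 387 CPM in aorta with E2 and 454, 529, 415 and 370.1 CPM with vehicle. Its liver values were 28.2, 55.0, 31.9 and 20.96 CPM with E2 and 35.8, 34.9, 26.7 and 32.8 CPM with vehicle. No library of one tissue reached the range of the other, and the log2 differences were 3.82 ± 0.35 and 3.73 ± 0.30 (adjusted p = 1.65e-05 and 8.51e-07). Pfkl, the liver form by name, was also higher in aorta, by 2.22 ± 0.31 and 2.39 ± 0.31. Pfkm, the muscle form, was not called, at 0.02 ± 0.33 with E2 and −0.34 ± 0.32 with vehicle. Pfkfb3, whose product makes an activator of phosphofructokinase, stood higher by 4.15 ± 0.53 and 3.82 ± 0.50.

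The aldolases went opposite ways. Aldoa, the muscle and general form, stood higher in aorta by 2.51 ± 0.32 with E2 and 2.67 ± 0.30 with vehicle. Aldoc, known as the brain form, was the gene of the list called lower in aorta than in liver. It had 1.66, 0.513, 0.578 and 3.04 CPM in aorta with E2 and 0.681, 0.437, 0.797 and 1.96 CPM with vehicle, against 10.9, 8.90, 17.1 and 15.2 CPM in liver with E2 and 4.80, 16.1, 15.6 and 17.3 CPM with vehicle. Every aorta library lay below every liver library, at −3.19 ± 0.58 and −3.88 ± 0.54 on the log2 scale (adjusted p = 0.00132 and 9.63e-05). Its level was low in both tissues: the 4 aorta libraries with vehicle held 58 Aldoc reads together. Tpi1, which links the products of aldolase, stood higher by 1.56 ± 0.38 and 1.21 ± 0.33, and its call with vehicle was lost without n1 (0.93) and without n2 (1.09).

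Of the 6 listed genes of lower glycolysis and pyruvate use, 5 were tested with E2 and 4 with vehicle, and other genes of these steps outside the list (Pkm, Eno2 and Ldhb, given below) were called higher in aorta. Of the 6, Pgk1 was called higher in aorta, by 1.51 ± 0.50 with E2 and 1.27 ± 0.40 with vehicle (adjusted p = 0.0279 and 0.0203), and no other was called. The Pgk1 call was lost without n2 with vehicle (1.26) and without o2 (1.22), n1 (1.86) or n2 (1.77) with E2. Ldha, which makes lactate from pyruvate, stood at 284, 345, 1123 and 1216 CPM in aorta with E2 and 277, 332, 1035 and 1589 CPM in aorta with vehicle. In liver Ldha stood at 162, 161, 963 and 1247 CPM with E2 and 139.6, 213, 788 and 1065 CPM with vehicle. Its groups overlapped across suffixes, and the log2 differences of 0.58 ± 0.34 and 0.63 ± 0.30 did not pass (adjusted p = 0.181 and 0.0993). Pdk1, a kinase that keeps pyruvate out of mitochondria, was at 0.32 ± 0.40 and −0.71 ± 0.43. Gapdh was at −0.36 ± 0.48 and −0.13 ± 0.63, and Pgam1 at 1.70 ± 0.78 with E2, where alone it passed the filter.

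Several of these values rest on genes with many near-copies in the genome. Longest protein-coding transcripts were compared with all GENCODE M21 transcripts (at least 85% identity over at least 200 bases). Gapdh had 282 pseudogene copies, Ldha 25, Aldoa 9, Eno1 9, Tpi1 7, Pgk1 6, Pgam1 4 and Bnip3 4. Some near-copies were counted under symbols of their own. They include Eno1b, a near-copy of Eno1 not classed as a pseudogene, Gm13315 for Ldha, and Gm10364 and Gm5069 for Gapdh, whose levels are not given here. How reads with several matches were treated is not given in the sources used here. Gapdh, usually an abundant mRNA, had 15 to 141 reads per library, or 0.434 to 2.02 CPM per kb of exon in aorta, where Ldha had 83.6 to 480 CPM per kb. Pgam1 had 0 to 25 reads and Eno1 0 to 29. Levels of these 8 genes are therefore uncertain. The retrogenes Aldoart1 and Aldoart2 were listed at 0.928% to 1.681% and 4.536% to 9.664% of the Aldoa count in n libraries, and held 0 to 3 reads each in o libraries.

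Of the 2 factor genes, Hif1a was called higher in aorta than in liver and Epas1 was not called. Hif1a stood at 1377, 2302, 699 and 332 CPM in aorta with E2 and 1146, 1786, 450.0 and 119 CPM with vehicle. In liver Hif1a stood at 102, 163, 14.9 and 8.79 CPM with E2 and 96.9, 219, 13.9 and 15.8 CPM with vehicle. The n2 library of aorta with vehicle, at 119 CPM, lay below the o2 library of liver, at 219 CPM, but within each suffix aorta was higher, by 4.66 ± 0.53 with E2 and 3.74 ± 0.45 with vehicle (log2; adjusted p = 7e-05 and 3.05e-05). Epas1 stood at 340.2, 213, 155 and 115 CPM in aorta with E2 and 315, 120.0, 137 and 116 CPM with vehicle. Its liver values were 749, 401, 118 and 41.6 CPM with E2 and 689.9, 381, 97.2 and 89.0 CPM with vehicle. Aorta was lower in the o libraries and higher in the n libraries, and pooled the difference was −0.07 ± 0.50 with E2 and −0.50 ± 0.39 with vehicle.

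The oxygen sensors of the list also stood higher in aorta than in liver. Egln2, a gene of the same family outside the list, had a lower mean in aorta. Its means were 37.4 CPM in aorta and 54.5 CPM in liver with E2, and 36.7 and 51.7 CPM with vehicle. The ranges of its libraries overlapped between the tissues. Egln3, itself a known HIF target, stood at 63.1, 106, 179 and 141 CPM in aorta with E2 and 62.5, 91.7, 174 and 91.7 CPM with vehicle. Liver held 5.76, 4.86, 4.28 and 4.39 CPM of Egln3 with E2 and 5.07, 9.24, 7.51 and 6.65 CPM with vehicle. The tissues did not overlap, with log2 differences of 4.65 ± 0.44 and 3.82 ± 0.35 (adjusted p = 1.8e-05 and 2.87e-06). Egln1, the main sensor in most cells, was higher by 3.56 ± 0.34 with E2 and 3.12 ± 0.33 with vehicle.

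**Figure D2:**
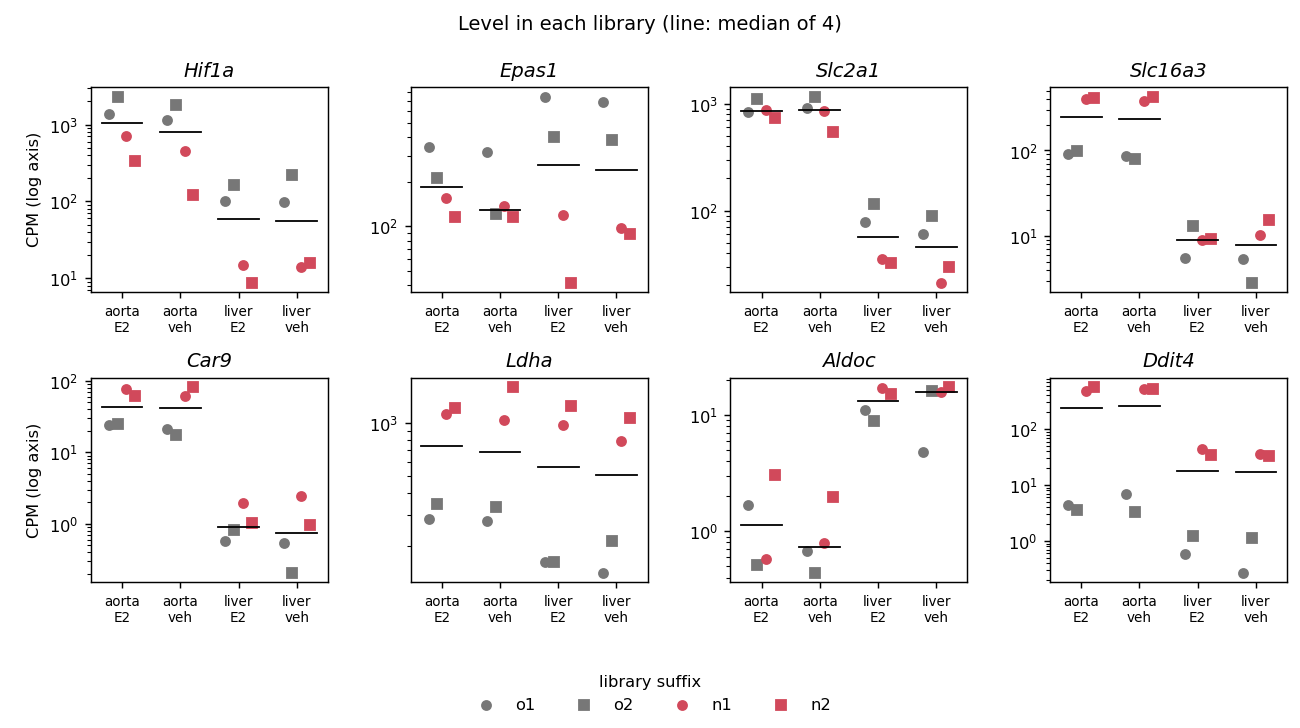
CPM (log axis) of 8 genes in each of the 16 libraries, with aorta before liver and E2 before vehicle; grey marks o libraries, red marks n libraries, and the line is the median of 4. Slc2a1, Slc16a3 and Car9 separate the tissues in every library, whereas Ldha and Ddit4 split by suffix, and Epas1 by suffix within liver.

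All 9 other targets stood higher in aorta than in liver with either treatment. The log2 differences lay between 1.84 and 5.35 with E2 and between 1.81 and 5.53 with vehicle. Car9, a carbonic anhydrase of the cell surface used as a marker of hypoxia, had the widest gap of the 31 genes. It stood at 24.1, 24.7, 76.9 and 60.7 CPM in aorta with E2 and 21.5, 17.2, 60.6 and 81.5 CPM with vehicle, against 0.576, 0.809, 1.96 and 1.014 CPM in liver with E2 and 0.534, 0.203, 2.44 and 0.950 CPM with vehicle. Aorta libraries with vehicle held 3040 Car9 reads together and liver libraries 23, and the log2 differences were 5.35 ± 0.42 and 5.53 ± 0.45 (adjusted p = 5.76e-06 and 1.06e-06). P4ha2, a subunit of the collagen prolyl hydroxylase, stood at 175, 254, 261 and 256 CPM in aorta with E2 and 184, 165, 264 and 244 CPM with vehicle. Liver held 3.17, 11.3, 13.6 and 10.8 CPM of P4ha2 with E2 and 9.87, 2.54, 15.02 and 11.7 CPM with vehicle. P4ha2 libraries of the tissues did not overlap, at 4.79 ± 0.40 and 4.62 ± 0.40 (adjusted p = 8.36e-06 and 1.72e-06).

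Of the remaining targets, P4ha1, the other catalytic subunit, was higher by 3.13 ± 0.48 with E2 and 2.64 ± 0.33 with vehicle. Ndrg1, a stress-induced gene, was higher by 3.65 ± 0.49 and 2.91 ± 0.42. Ankrd37, an ankyrin-repeat gene, was higher by 2.58 ± 0.36 and 4.15 ± 0.51. Ddit4, which encodes an inhibitor of mTOR signalling (REDD1), was higher by 3.19 ± 0.48 and 3.42 ± 0.45. Adm, which encodes the vasodilator adrenomedullin, was higher by 2.39 ± 0.39 and 2.33 ± 0.31. Bnip3, of mitochondrial autophagy, was higher by 3.02 ± 0.43 and 1.81 ± 0.42, and Higd1a, a mitochondrial protein gene, by 1.84 ± 0.39 and 2.37 ± 0.40. Per kb of exon, the highest of the 8 aorta libraries held 480 CPM per kb for Ldha, 391 for Hif1a, 333 for Slc2a1, 332 for Aldoa and 321 for Ddit4. The lowest held 83.6, 20.3, 157, 24.8 and 1.88, in the same order. The highest values of Ldha, Aldoa and Ddit4 came from n libraries and those of Hif1a and Slc2a1 from o libraries. Pdk1, Gapdh, Aldoc, Pgam1 and Eno1 stayed at or under 2.02 in every aorta library.

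Genes of the same pathways outside the list were set beside these. Of 33 other genes of glucose use and production, 27 were tested; 7 were called higher and 12 lower in aorta with E2, and 7 higher and 14 lower with vehicle. Over all genes tested, 26.3% were called higher and 22% lower with E2, and 24.1% and 23.4% with vehicle, so the share called higher was near that of all genes. The higher ones included Slc2a4, the insulin-responsive glucose transporter (log2 5.21 ± 0.56 with E2 and 4.39 ± 0.53 with vehicle), the pyruvate kinase gene Pkm (3.20 ± 0.40 and 2.97 ± 0.39), Ldhb (2.74 ± 0.42 and 1.85 ± 0.36) and Eno2 (2.79 ± 0.53 and 3.21 ± 0.66). The lower ones included the liver pyruvate kinase gene Pklr and the glucose-6-phosphatase gene G6pc, which had 4 and 16 reads in all aorta libraries with vehicle, against 4828 and 7654 reads in the liver libraries with vehicle.

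Of 12 tested genes around pyruvate dehydrogenase, 5 were called higher and 3 lower in aorta with E2, and likewise with vehicle. The share called lower was near that of all genes tested, 22% with E2 and 23.4% with vehicle, where 26.3% and 24.1% were called higher. Pdk3, Pdp1, Pdk4 and Dld stood higher, by 3.03, 3.09, 2.19 and 1.08 on the log2 scale with vehicle. Pdk2, Pdp2 and Mpc2 stood lower, at −1.61, −1.57 and −1.33. Of 15 tested genes listed as partners of the factors and sensors, 5 were called higher and 1 lower with E2. With vehicle 4 were called higher and 0 lower, and the share called higher was near the 24.1% of all genes. The 4 were Vhl, whose product binds hydroxylated HIF (2.16 ± 0.50), Nampt (1.47), Crebbp (1.14) and Tceb1 (1.02). Nampt was on that list although its product is no partner of the factors or sensors. Of 43 tested HIF targets outside the list, 23 were called higher and 3 lower with E2, against 26.3% and 22% of all genes. With vehicle 18 were called higher and 5 lower, against 24.1% and 23.4% of all genes. Lox, which cross-links collagen, was higher by 5.71 ± 0.48 with E2 and 5.88 ± 0.55 with vehicle, Plod2, which modifies collagen, by 4.72 and 4.22, and Ero1l by 4.04 and 3.64. Trf, the transferrin gene made by hepatocytes, stood lower, at −7.55 ± 0.55 and −7.23 ± 0.45, and Car14, Kdr, also an endothelial marker, and Ppp1r3c stood at −4.54, −2.24 and −1.51 with vehicle. The median over these 43 targets was 1.36 with E2 and 0.99 with vehicle, and over the 27 glucose genes −0.88 and −1.19.

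Levels of many of these genes differed between o and n libraries of the same tissue. Ddit4 stood at 4.39, 3.66, 473 and 563 CPM in aorta with E2 and 6.81, 3.30, 521 and 529.9 CPM with vehicle. In liver Ddit4 stood at 0.576, 1.21, 43.8 and 34.1 CPM with E2 and 0.267, 1.12, 35.7 and 33.6 CPM with vehicle. Within a letter aorta was still higher throughout. Averaged on log2(CPM + 1), n minus o was 6.60 in aorta for Ddit4, 3.14 for Aldoa, 3.06 for Pgk1, 2.60 for Pfkl and 2.46 for Higd1a. It was −2.31 for Pfkfb3, −2.25 for Hif1a, −0.998 for Hk2 and −0.81 for Epas1. Over the 31 genes this difference ran against the length of the longest transcript, with Spearman's rho of −0.53 in aorta and −0.72 in liver, while rho with GC content was 0.23 and 0.26. The 31 points share the same libraries, so these are descriptions. Between n2 and n1, rho with length was −0.55 in aorta with E2 and −0.53 in aorta with vehicle, and −0.33 in liver with E2 and 0.34 in liver with vehicle, so its sign differed between the liver treatments. Differences between kits, RNA input, instruments and tissue pools cannot be told apart behind the suffix.

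**Figure D3:**
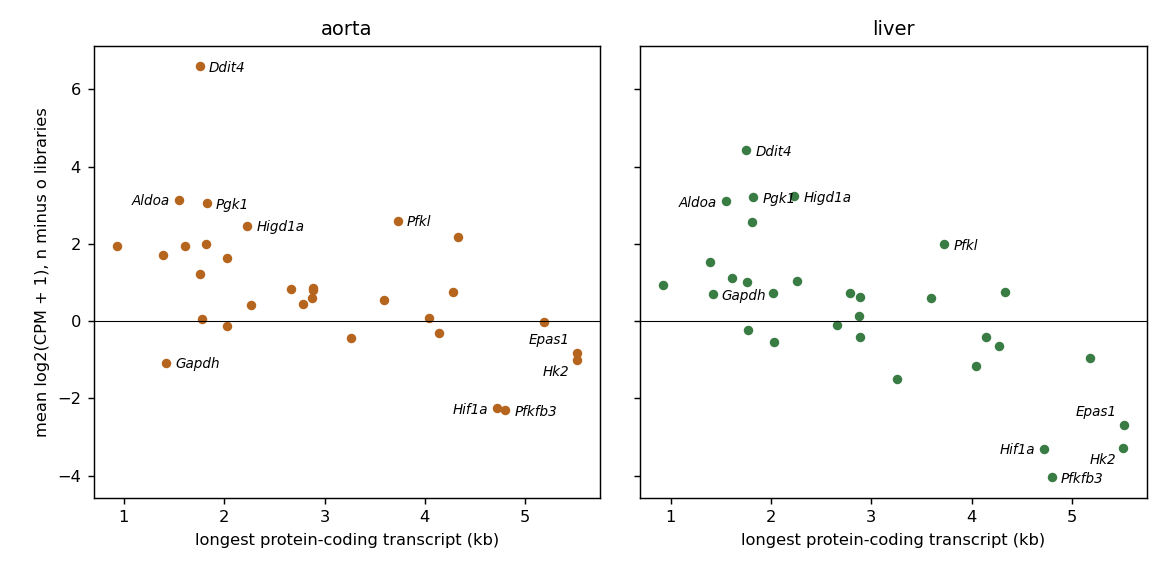
Mean log2(CPM + 1) of n libraries minus o libraries for each gene against the length of its longest protein-coding transcript (kb), in aorta (left) and liver (right). Ddit4 and Aldoa, with short transcripts, lie above 0 and Hif1a and Pfkfb3, with long ones, below 0 in both tissues. Some other genes depart from this. The short Gapdh lies at −1.07 in aorta, and the long Slc16a3 at 2.18 in aorta and 0.768 in liver.

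The tissue difference was therefore also taken within each letter. With o libraries alone, 22 genes were called higher and 2 lower with E2, and 21 higher and 3 lower with vehicle, where 41.8% and 42.5% of all genes tested were called in either direction. With n libraries alone, 23 were called higher and 2 lower with E2, and 21 higher and 1 lower with vehicle, where 62.8% and 47.4% of all genes were called. The called direction of each of the 24 genes held in both letters, although Pgk1 was called in neither letter alone, Tpi1 was not called in o libraries with vehicle and Bnip3 was not called in n libraries with vehicle. For Slc2a1 the log2 difference was 3.33 in o and 4.41 in n libraries with E2 and 3.78 and 4.64 with vehicle, for Car9 5.03 and 5.28 with E2 and 5.91 and 5.26 with vehicle, and for Aldoc −3.31 and −3.32 with E2 and −4.31 and −3.76 with vehicle. Epas1 turned: it was −1.08 in o and 0.64 in n libraries with E2, and −1.33 and 0.30 with vehicle, and the o values passed the threshold with either treatment. Gapdh was 0.40 and −1.39 with E2 and 1.20 and −1.55 with vehicle, and passed in n libraries with E2. Pgam1, not called in the pooled fit, passed in n libraries with E2 at 3.24, so the 23 called higher there include it and not Pgk1. Pdk1 also passed in o libraries with vehicle, at −1.34.

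**Figure D4:**
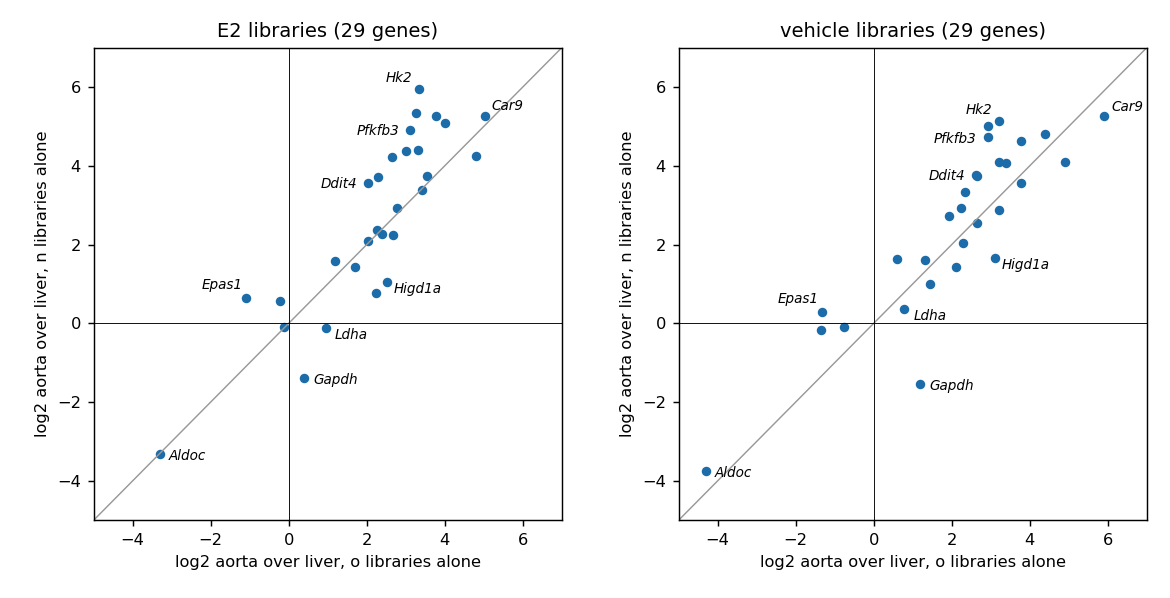
Log2 fold change of each gene, aorta over liver, in o libraries alone (horizontal) and n libraries alone (vertical), for the E2 libraries (left) and the vehicle libraries (right); the grey line marks equal values. Most genes lie near or above the line in the upper right, while Gapdh and Epas1 change sign between the letters.

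Whether the tissue difference itself differed between the letters was tested over all 16 libraries. Of 30 genes tested, 9 had a larger aorta-over-liver value in n libraries and 1 a smaller one, against 28.9% of 14190 genes called in either direction. Hk2 differed most, by 2.38 ± 0.43, then Pfkfb3 by 1.93 ± 0.43 and Epas1 by 1.77 ± 0.48. The others were Ddit4 (1.58), Slc16a3 (1.42), Ndrg1 (1.42), Hk1 (1.36), P4ha1 (1.18) and Slc2a1 (1.12), and Gapdh was smaller in n, at −2.14 ± 0.55. Over all genes tested the median was 0.41, with 8675 positive and 5515 negative values, and RLE scaling reduced it to 0.14. The median over these 30 genes was 0.72. With RLE scaling 6 genes were called larger and 2 smaller, Slc2a1, Slc16a3 and P4ha1 being lost. Without the n1 libraries Hk2 alone remained called, and over all genes 904 of 13613. Without o2 5 were called larger and 1 smaller, and the Ddit4 value fell to 0.11.

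E2 was then compared with vehicle in aorta, the question the series title names. No gene of the 31 passed, nor did any of 13698 genes tested (0%; edgeR's quasi-likelihood test), while 495 genes had an unadjusted p under 0.05, none of them among these 31. DESeq2 called 24 genes and the fit with a replicate block of the 4 suffixes called 12, and again none of the 31 was among them. With that block 856 genes had an unadjusted p under 0.05, and the smallest adjusted p among the listed genes was 0.46 (edgeR). How many of the 31 were among those 856 is not given here. Without n1 and without n2, 11 and 35 genes were called, none of the 31. Of 30 genes tested, 20 were higher and 10 lower with E2, with a median log2 difference of 0.10, and 27 lay within 0.5 of 0. SEs ran from 0.14 to 0.60 with a median of 0.19. Slc2a1 was at 0.04 ± 0.18, Slc16a3 at 0.08 ± 0.15, Ldha at −0.08 ± 0.18 and Car9 at 0.13 ± 0.19.

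Without the replicate block, the smallest p in aorta belonged to Ankrd37, Hk1 and Pdk1. Ankrd37 stood at 8.93, 8.73, 43.8 and 41.9 CPM with E2 and 11.9, 16.0, 40.7 and 58.3 CPM with vehicle, a log2 difference of −0.43 ± 0.20 that was negative in 3 of 4 suffixes (unadjusted p = 0.0568 and adjusted p = 1, edgeR). Hk1 stood at 274, 349, 518 and 494 CPM with E2 and 239, 241, 465 and 364 CPM with vehicle, at 0.31 ± 0.16 and positive in 4 of 4 suffixes (unadjusted p = 0.0747, edgeR). Pdk1 had 8.32, 8.53, 12.1 and 7.31 CPM with E2 and 7.32, 5.48, 7.93 and 3.76 CPM with vehicle, at 0.56 ± 0.30 and positive in 4 of 4 (unadjusted p = 0.0918, edgeR). E2 and vehicle libraries overlapped for all 3. These genes were picked by p from the same libraries, so signs shared over suffixes add no separate support. Hif1a was higher with E2 in 4 of 4 suffixes, by 0.26 to 1.47 on log2(CPM + 1), and its fitted difference was 0.58 ± 0.39 (unadjusted p = 0.176, edgeR).

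In liver, 27 of the 31 genes were tested between E2 and vehicle, and 0 passed, as did 0% of 11726 genes with edgeR and 0 with DESeq2, while 502 genes had an unadjusted p under 0.05, none of the 31 among them. There were 12 genes higher and 15 lower, with a median of −0.04, and SEs had a median of 0.30. Ndrg1 stood at 11.5, 22.3, 13.4 and 7.77 CPM with E2 and 17.1, 26.3, 14.3 and 22.8 CPM with vehicle, a log2 difference of −0.58 ± 0.30, negative in 4 of 4 suffixes (unadjusted p = 0.0677 and adjusted p = 0.939, edgeR). Slc2a1, with the liver values given above, was at 0.39 ± 0.20 and positive in 4 of 4 (unadjusted p = 0.0729, edgeR). Bnip3 had 2.02, 1.42, 5.62 and 2.37 CPM with E2 and 3.20, 2.13, 6.01 and 9.50 CPM with vehicle, at −0.78 ± 0.47 and negative in 4 of 4 (unadjusted p = 0.118, edgeR). All 3 overlapped between the groups, and they too were picked by p, so their shared signs add no separate support. Ankrd37, Car9, Pgam1 and Eno1 had too few reads in liver to be tested.

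**Figure D5:**
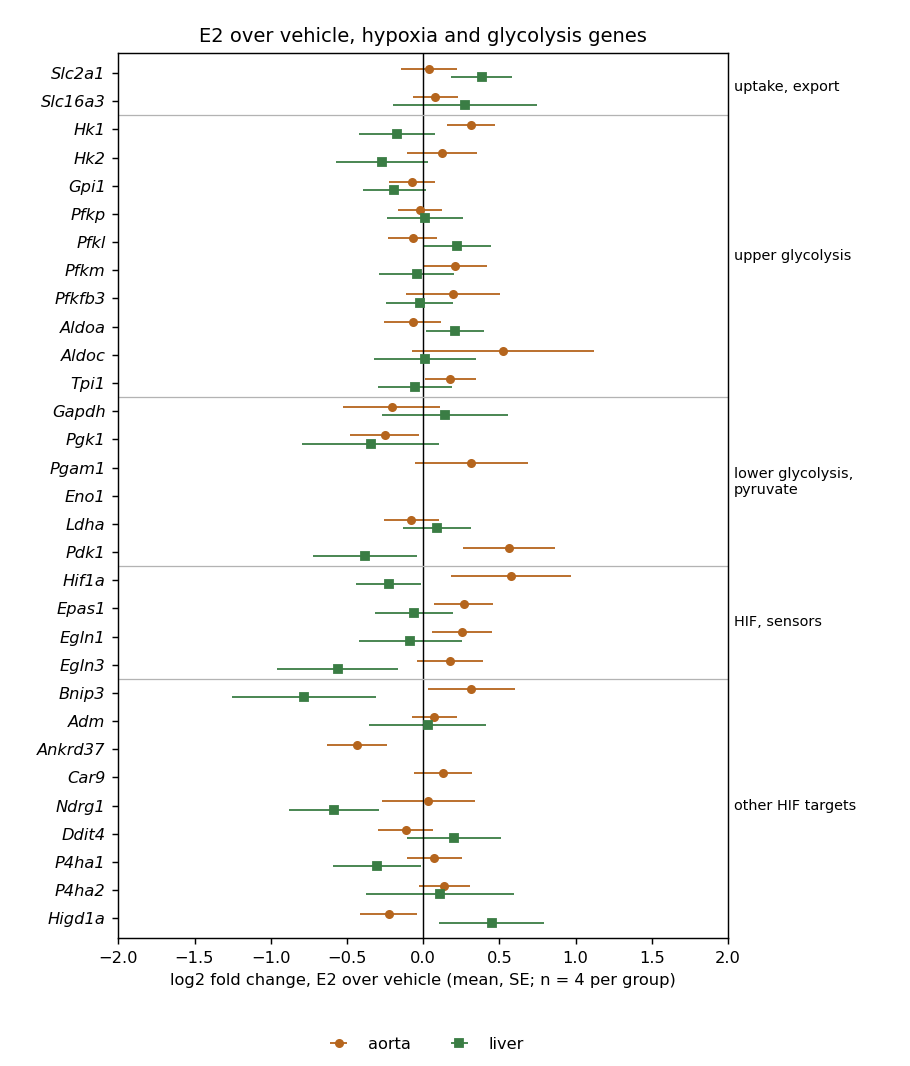
Log2 fold change of each gene, E2 over vehicle, in aorta (brown circles) and in liver (green squares), with the SE, from 4 libraries per group. Values lie between −0.43 and 0.58 in aorta and between −0.78 and 0.45 in liver, and none passed the test.

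The E2 effect in aorta minus that in liver was tested as an interaction. None of 30 genes passed, nor did any of 14190 (0%), with 761 genes at an unadjusted p under 0.05, 4 of them among these 30 (edgeR); DESeq2 called 10 genes and the replicate block 1, none of the 31. Ankrd37 was at −1.68 ± 0.63 (unadjusted p = 0.0168). Its liver libraries had 1.73, 1.11, 6.84 and 9.80 CPM with E2 and 0.801, 2.54, 1.502 and 1.27 CPM with vehicle, so E2 lay above vehicle in o1, n1 and n2 and below it in o2, and the 4 liver libraries of each treatment held 102 and 44 reads of it with E2 and vehicle. Bnip3 was at 1.08 ± 0.49 (unadjusted p = 0.0405, edgeR) and in aorta stood at 8.93, 14.0, 41.99 and 29.7 CPM with E2 and 10.4, 12.3, 32.1 and 14.3 CPM with vehicle. Egln3 was at 0.78 ± 0.35 (unadjusted p = 0.0393, edgeR) and Pdk1 at 0.96 ± 0.45 (unadjusted p = 0.0469, edgeR). The adjusted p of these 4 was 0.875. All 4 factor and sensor genes had positive values in aorta (0.18 to 0.58) and negative ones in liver (−0.56 to −0.06), and none of the differences passed. How many of all genes tested had such opposed signs was not counted, so the pattern is a description only.

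Other genes of the pathways gave no call with E2 in either tissue. In aorta the smallest p of each list belonged to Gpd1 (log2 0.54), Hmox1 (−0.47), Pdk2 (0.43) and Rbx1 (−0.64), and in liver to Angptl4 (−1.15), Eno3 (0.70), Ep300 (−0.58) and Pdha1 (−0.40). Angptl4, a lipoprotein lipase inhibitor gene that HIF and other factors induce, stood at 21.03, 6.17, 25.8 and 22.6 CPM in liver with E2 and 52.0, 15.6, 44.5 and 51.9 CPM with vehicle. It was lower with E2 in every suffix, with an unadjusted p of 0.000166 and an adjusted p of 0.939 (edgeR). Angptl4 was picked by that p, so the shared sign adds no separate support.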

How the data were processed

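RNA-seq was measured in 16 libraries of mouse aorta or liver, 4 in each of 4 groups. The authors deposited one table of reads counted by gene symbol. The submitters' processing notes name Bowtie 0.12.5, HTSeq 0.4.5p7, edgeR 3.4.2 and the build mm9. Not given in the sources used here: the annotation, the strand setting and the treatment of reads with several matches. The deposited columns were handled as estimated counts, since 1 summary line is a percentage; every gene value was whole, so rounding changed none. The 8 lines that name no gene were left out; reads with no feature were 48% to 75.2% of the total and ambiguous reads 0.0452% to 0.523%. No 2 libraries were identical. Columns were matched to groups by name, not to single samples.

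Counts were filtered by group (minimum count 10, minimum total 15), scaled by TMM and tested with edgeR 4.0.16 quasi-likelihood tests in R 4.3.3, with the batch (o1, o2 and n, from the column suffix) as a covariate and Benjamini-Hochberg adjustment over all genes tested. Genes were called at an adjusted p under 0.05, in tissue comparisons also with a log2 difference over 1. The SE given for a log2 difference was worked back from the test, as its absolute value over the square root of the F statistic. It is unreliable where the difference is near 0. Differences per suffix used log2(CPM + 1). The tests were tried on simulated data first. Alternatives were RLE and upper quartile scaling, no filter, DESeq2 1.42.0, Rn45s left out, a replicate block, each letter alone and each suffix left out.

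Libraries with the same suffix deviated together from their group means (r of 0.84 to 0.93 between E2 and vehicle and 0.65 to 0.81 between tissues). Most of this correlation is the difference between o and n, since around letter means r was −0.074 to 0.50. It was −0.047 between E2 and vehicle in the n libraries of liver. The suffix, known from the column name alone, was taken as a pairing only in the replicate block and in the differences per suffix. The main fits set o1 and o2 apart but took n1 and n2 together, so they did not pair libraries within n.

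Every gene is given with its tissue direction. Values of every library are given for up to 6 genes per direction with the smallest p in the vehicle tissue comparison, for the 3 smallest p of each E2 comparison, and for Hif1a and Epas1; Ldha and Ddit4 were added after their values were seen. Other lists give up to 4 genes per direction called with vehicle, and 1 per tissue for E2; some genes that this rule names are not reported here. The genes and lists were chosen with earlier results of these data known. Copies were sought with blastn 2.17.0 in GENCODE M21. The promoter windows are of another build than the counts, and no coordinates were converted.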

Additional observations from a re-analysis of the deposited data

Results flagged for a closer look

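In 115 groups of 4 libraries examined, 5 held a library whose gap to its nearest neighbour passed Dixon's critical value, and chance gives about 1 in 20. Aldoc was lowest in the o1 library of liver with vehicle, at 4.80 CPM. Epas1 was highest in o1 of aorta with vehicle, at 315.3 CPM, and Ndrg1 in n1 of the same group, at 310.7 CPM. P4ha2 was lowest in o1 of aorta with E2, at 175.2 CPM, and Pfkp highest in o2 of that group, at 563.5 CPM.

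For 10 genes the aorta-over-liver difference differed between n and o libraries by the edgeR test of the difference itself, as n minus o on the log2 scale. The values were 2.38 for Hk2, 1.93 for Pfkfb3, 1.77 for Epas1, 1.58 for Ddit4, 1.42 for Slc16a3, 1.42 for Ndrg1, 1.36 for Hk1, 1.18 for P4ha1, 1.12 for Slc2a1 and −2.14 for Gapdh, against a median of 0.41 over all genes tested. With 10 of 30 genes called, the share was near the 28.9% of all 14190 genes, so it is no result about these genes as a set. Without the n1 libraries 1 of these genes, Hk2, was called. Kit, RNA input, instrument and tissue pool cannot be told apart here.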

How the results depend on the processing

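Of single-gene values under the alternatives, 851 kept direction and side of the threshold, 36 lost the call, 6 gained one and 21 turned sign; the cause was not tested. All reversals were of genes not called in the comparison concerned. With vehicle, Gapdh turned to 0.0015 with Rn45s left out, and 1.20 in o libraries alone, and ran from −0.74 to 0.55 with 1 suffix left out (positive without n1 and without n2); Epas1 turned to 0.30 in n libraries alone. With E2, Pfkm turned to −0.083 with RLE scaling, −0.047 with upper quartile scaling, −0.080 with DESeq2, −0.074 with Rn45s left out, −0.13 in o and −0.10 in n libraries alone, and between −0.21 and 0.23 with 1 suffix left out (negative without o2 and without n2). Gapdh turned to 0.40 in o libraries alone and 0.064 without n1 (lowest −0.71, without o2), Ldha to −0.12 in n libraries alone, Pdk1 to −0.22 in o libraries alone and −0.042 without n1 (highest 0.43, without o1), and Epas1 to 0.64 in n libraries alone, 0.29 without o1 and 0.11 without o2 (lowest −0.51, without n2). Genes of the list called lower in aorta numbered 3 in o libraries alone with vehicle, and 2 in o and 2 in n libraries alone with E2. Leaving out 1 suffix at a time left 21 to 23 called higher with vehicle and 22 to 24 with E2, and 3834 to 6606 genes over the whole table with E2, against 6302. For E2 in aorta, 24 genes were called by DESeq2, 12 with the replicate block and 0 to 35 with 1 suffix left out. For E2 in liver, 6 were called without a filter, 1 in n libraries alone and 0 to 1 with 1 suffix left out. For the interaction, 10 were called by DESeq2, 1 with the replicate block and 0 to 1 with 1 suffix left out. None of the 31 genes was called for E2 under any of these alternatives. For the difference between letters, genes of the list called smaller in n numbered 2 with RLE scaling, 2 without a filter, 3 with DESeq2 and 2 with the replicate block. Leaving out 1 suffix gave 1 to 10 called, of which 1 to 9 larger and 0 to 2 smaller, and 904 to 3548 over all genes, against 4106. The replicate block changed no other call by over 1.5 times. Read numbers were low for Eno1, Pgam1 and Gapdh in both tissues, and for Car9 and Ankrd37 in liver; the cause was not tested.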
